A study of Mus musculus with 7 samples.

Results

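Tapbpl and 7 partner genes of MHC class I assembly were followed in single mouse oocytes with and without Hira, which encodes a chaperone of the histone variant H3.3. The genes were taken by name from a deposited table of 37620 gene identifiers. All 8 had a row in it: Tapbpl, Tapbp, Tap1, Tap2, B2m, Calr, Pdia3 and Erap1. Tapbpl was chosen by its FPKM in these same oocytes, already known to lie far above control in the knockouts, so its genotype difference is a description and supports nothing further. The other 7 were chosen for their function, with earlier results of these data known.

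Each library was made from 1 MII oocyte, the ovulated egg halted in its second meiosis. The 3 control oocytes (WT1, WT2 and WT4) carried Hiraf/f, a conditional Hira allele on both chromosomes, and the 4 knockout oocytes (KO1 to KO4) carried Hiraf/f together with Zp3-Cre. The Zp3 promoter is active in growing oocytes, so the Hira loss these oocytes model belongs to the egg and not to the follicle cells around it. Another control oocyte counted in the series' design is not analysed here. The labels give no strain, age or animal. Each library is a single cell with no animal named, so a genotype counts here as 1 sample, no test of genotype was possible, and ± is the SD between single oocytes. The libraries held 15340782 to 25940519 recovered reads in genes.

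MHC class I molecules carry short peptides to the cell surface, where T cells and natural killer cells read them. Proteasomes cut the peptides in the cytosol, the transporter TAP1/TAP2 pumps them into the endoplasmic reticulum (ER), and ERAP1 trims them there. The heavy chain folds with the light chain beta-2-microglobulin, and calreticulin, PDIA3 and tapasin hold this dimer beside TAP in the peptide loading complex. TAPBPR, the product of Tapbpl, is a tapasin relative that also exchanges peptides on class I molecules but works outside that complex and does not bind TAP.

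Hira itself was lower in each library labelled KO than in each control. It was at 0.312, 0.347 and 0.291 FPKM (fragments per kilobase of gene, scaled to library depth) in WT1, WT2 and WT4, and at 0.0941, 0.0955, 0.0242 and 0.0997 FPKM in KO1 to KO4. All 19 oocyte markers examined were expressed above the filter used here, which asks for at least 1 FPKM in at least 3 of the 7 libraries. Of these, 7 were higher and 12 lower by mean in KO oocytes, while their summed level, to which the most abundant genes contribute most, was 24730 to 25517 FPKM in WT and 16051 to 18874 FPKM in KO oocytes. Every KO oocyte lay below every WT oocyte for 6 of the 19 markers, beside 8.94% of all genes above the filter. For 0 of the 19 every KO oocyte lay above, beside 18.9%. Zp2, a zona pellucida protein gene, was the only oocyte marker over 2-fold apart (a difference of at least 1 in mean log2(FPKM + 1)), narrowly, at -1.01 with overlapping genotypes. It was inside 2-fold with a pseudocount of 5 (-0.95), with quantile normalization (-0.99), without WT4 (-0.72), without KO1 (-0.78) and without KO4 (-0.89). None of 16 leukocyte markers passed the filter, and 8 of them were listed at 0 in all oocytes. Their summed level was 1.94 to 4.81 FPKM in WT and 0.645 to 4.69 FPKM in KO oocytes. Cd3e of T cells, Csf1r of macrophages and Cd74, the class II invariant chain, were among the genes listed at 0, and the pan-leukocyte gene Ptprc was above 0 in KO2 (0.280 FPKM) and KO3 (0.00417 FPKM). The class II genes H2-Eb1 and H2-Aa ran opposite ways. H2-Eb1 was at 0 to 0.152 FPKM in WT and higher in each KO oocyte, at 0.269 to 1.43 FPKM, and H2-Aa was at 0.843 to 2.68 FPKM in WT and 0 to 0.927 FPKM in KO oocytes. Of 26 cumulus and granulosa cell markers only Fshr, the receptor for follicle-stimulating hormone, passed. Fshr was listed at 0 for every WT oocyte and for KO1, and reached 2.99, 4.34 and 4.51 FPKM in KO2, KO3 and KO4. The summed level of the granulosa list was 0.172 to 0.974 FPKM in WT and 0.785 to 5.65 FPKM in KO oocytes. Fshr made up most of that sum in KO2, KO3 and KO4 (3.32, 4.75 and 5.65 FPKM). Of the 26 markers, 14 were listed at 0 in all oocytes. The part of these marker levels in the results that follow was not tested.

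The 8 class I assembly genes fell into an expressed set and a set at or near 0. B2m, Calr and Pdia3 were well expressed in all 7 oocytes, Tapbpl was low in WT and well expressed in KO oocytes, and Tapbp, Tap1, Tap2 and Erap1 stayed under 1 FPKM in all 7. Thus 4 members were above the filter and 4 below it. The low set holds both subunits of the peptide transporter and tapasin, its partner in the loading complex. A listed 0 need not mean that a gene was not expressed: Mogs, the ER glucosidase that most cells use, is also listed at 0 in all 7 oocytes.

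**Figure D1:**
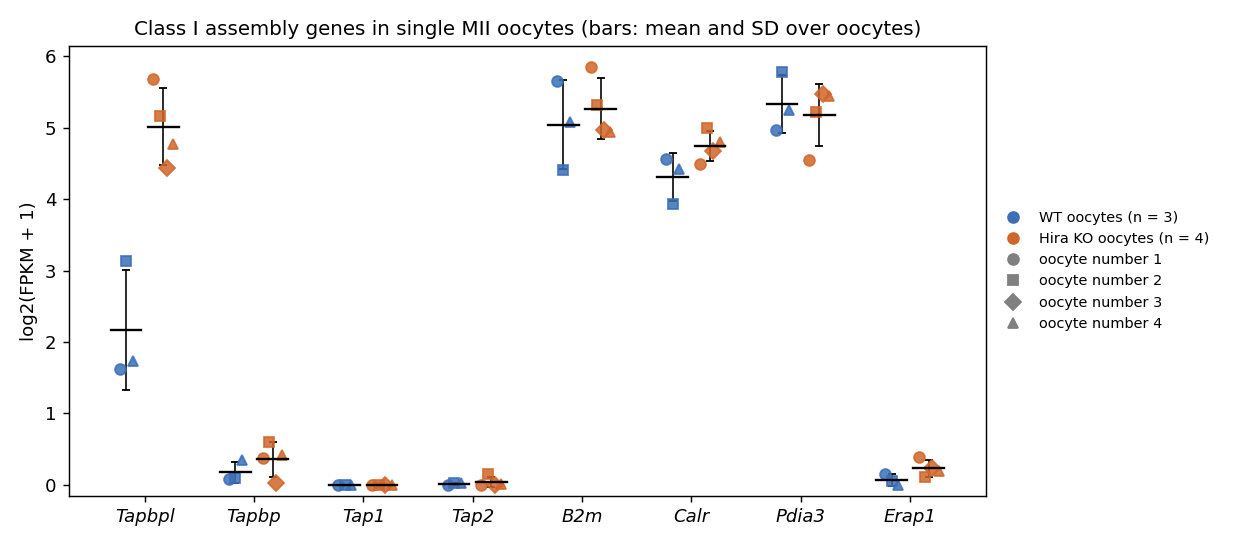
Level of the 8 class I assembly genes on the log2(FPKM + 1) scale (vertical axis), with 1 point per oocyte, the marker shape giving the oocyte's number in the labels; black bars are the mean and SD over 3 WT (blue) and 4 KO (orange) oocytes. Tapbpl is the only gene of the 8 whose WT and KO points do not overlap, and Tapbp, Tap1, Tap2 and Erap1 lie near 0 in both genotypes.

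Tapbpl was at 2.09, 7.81 and 2.34 FPKM in WT1, WT2 and WT4, and at 50.4, 34.8, 20.7 and 26.4 FPKM in KO1 to KO4. Every KO oocyte lay above every WT oocyte, and the lowest KO value was 2.65 times the highest WT value. The means were 4.08 ± 3.23 FPKM in WT (n = 3) and 33.1 ± 12.9 FPKM in KO (n = 4), a ratio of 8.11. With 1 oocyte left out, this ratio ran from 6.52 (without WT1) to 14.95 (without WT2). The underlying reads were 100, 441 and 100 in WT and 2290, 1947, 1521 and 1605 in KO oocytes. WT2 stood apart from the other controls.

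Genes were compared on the log2(FPKM + 1) scale by subtracting the WT mean from the KO mean, and a difference of at least 1 counts as over 2-fold. Tapbpl differed by 2.85, the 13th highest difference of the 8033 genes above the filter. It was the only member over 2-fold higher, against 7.95% of all genes above the filter, and no member was over 2-fold lower, against 2.34%, or 10.3% of all genes in either direction. Because Tapbpl was chosen for this contrast, nothing is read from that count. Without overlap between genotypes were 1 of the 4 members above the filter and 27.9% of all genes, 18.9% with KO higher and 8.94% with KO lower. All genes above the filter had a median difference of 0.18. With median-ratio scaling of the libraries this median was -0.01 and the Tapbpl difference 2.62, and with quantile normalization Tapbpl differed by 2.65.

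Tapbpl also varied more between oocytes of the same genotype than most genes with a similar mean over all oocytes. Its pooled within-genotype SD was 0.67 on the log2(FPKM + 1) scale. The median was 0.29 over the 1817 genes with a mean of 10 to 40 FPKM, and 96.8% of them had a smaller SD. The WT values of Tapbpl, 2.09 to 7.81 FPKM, lay below that range, so these genes do not match its WT level. Without WT2 the Tapbpl difference was 3.33, the highest of the 7 values obtained by leaving out 1 oocyte, and without WT1 it was 2.58, the lowest.

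Tapasin, encoded by Tapbp, is the peptide editor of the loading complex and the closest relative of TAPBPR among the 8. Tapbp was at 0.0643, 0.0682 and 0.270 FPKM in WT and at 0.297, 0.523, 0.0209 and 0.342 FPKM in KO oocytes, and the genotypes overlapped. All 7 libraries together held 217 Tapbp reads, against 8004 Tapbpl reads. In every oocyte, WT included, the Tapbpl level exceeded the Tapbp level, with ratios from 8.66 in WT4 to 987 in KO3. The KO3 ratio rests on 4 Tapbp reads. Of the Tapbp transcript sequence, 23.2% recurs in other annotated genes, so part of its reads could not be assigned with certainty. For Tapbpl this share was 3.69%.

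The peptide transporter genes were at or near 0. Tap1 was listed at 0 in each of the 7 oocytes. Tap2 reached 0.110 FPKM in KO2, its highest value. It was at 0, 0.0155 and 0.0205 FPKM in WT, and at 0, 0 and 0.00722 FPKM in KO1, KO3 and KO4. Neither gene gave a usable comparison of genotypes at these levels.

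B2m, the light chain shared by nearly all class I molecules, was at 49.1, 20.1 and 32.7 FPKM in WT and at 56.6, 38.7, 30.2 and 29.5 FPKM in KO oocytes. The genotypes overlapped over most of their range. The means were 34.0 ± 14.5 FPKM and 38.8 ± 12.6 FPKM. The log2 difference of 0.22 was close to the median of all genes and was -0.01 with median-ratio scaling.

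Calreticulin, the ER lectin chaperone encoded by Calr, was at 22.7, 14.3 and 20.5 FPKM in WT and at 21.5, 30.9, 24.6 and 26.8 FPKM in KO oocytes. Only KO1 fell within the WT range, below WT1. Its log2 difference was 0.43, and 0.20 with median-ratio scaling. Without WT1, or without KO1, the genotypes of Calr no longer overlapped.

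Pdia3, the thiol oxidoreductase that pairs with tapasin, was at 30.4, 53.8 and 36.8 FPKM in WT and at 22.4, 36.4, 43.5 and 42.5 FPKM in KO oocytes. The ranges overlapped, with the highest value in WT2 and the lowest in KO1. Its difference was -0.16, and leaving out 1 oocyte at a time gave -0.34 to 0.07.

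Erap1, the aminopeptidase that trims peptides in the ER, was at 0.115, 0.0347 and 0 FPKM in WT and at 0.311, 0.0770, 0.181 and 0.148 FPKM in KO oocytes. These levels rest on 19 reads in WT and 104 in KO libraries, and KO2 lay within the WT range. With a pseudocount of 0.1 its log2 difference was 0.91, but it remained under the filter.

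Ratios within an oocyte do not depend on how libraries are scaled against each other. The Tapbpl level was 0.0425, 0.388 and 0.0714 of the B2m level in WT1, WT2 and WT4. In KO1 to KO4 it was 0.890, 0.898, 0.684 and 0.895 of it. The ratios of the genotypes did not overlap. All ratios of Tapbpl given here carry the FPKM by which it was chosen, so their separation is a description and supports nothing further. In KO1, KO2 and KO4 the ratios lay close together, at Tapbpl levels of 50.4, 34.8 and 26.4 FPKM. KO3 was lower in both, with Tapbpl at 20.7 FPKM. Ratios to Calr (0.0921 to 0.548 in WT, 0.842 to 2.34 in KO) and to Pdia3 (0.0634 to 0.145 in WT, 0.476 to 2.25 in KO) were also apart. The Calr to B2m ratio, at 0.461 to 0.708 in WT and 0.380 to 0.909 in KO oocytes, overlapped.

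**Figure D2:**
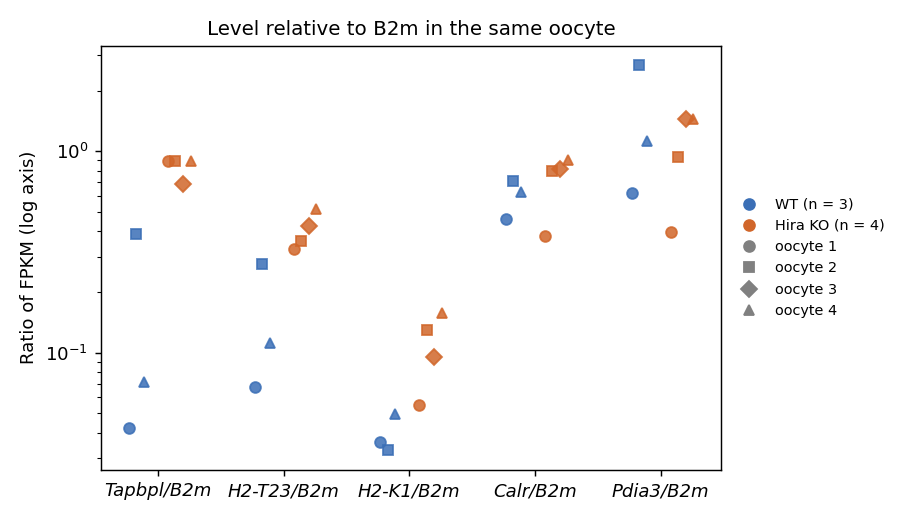
Level of 5 genes relative to B2m in the same oocyte (vertical axis, ratio of FPKM on a log axis), with 1 point per oocyte for 3 WT (blue) and 4 KO (orange) oocytes. The Tapbpl points lie at 0.0425 to 0.388 in WT and 0.684 to 0.898 in KO oocytes, while the Calr and Pdia3 points of the genotypes overlap.

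TAPBPR acts on heavy chains, so the class I and class I-like heavy chain genes were examined next. This list was chosen for function, but with earlier results of these data known, so its counts are descriptions. Of 24 genes, 3 were above the filter and the other 21 had at most 0.411 FPKM in any oocyte, 11 of them at 0 throughout. H2-T23 and H2-K1 were over 2-fold higher in KO oocytes and Cd1d1 was over 2-fold lower, beside 7.95% and 2.34% of all genes above the filter. For Cd1d1 the filter was passed through the WT oocytes alone, so a gene this low in KO had to differ to be counted.

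H2-T23 encodes the heavy chain of Qa-1, a non-classical class I molecule read by natural killer cell receptors. It was at 3.33, 5.57 and 3.65 FPKM in WT and at 18.6, 13.8, 12.9 and 15.2 FPKM in KO oocytes. The genotypes were far apart, with the lowest KO value 2.32 times the highest WT value. The means were 4.18 ± 1.21 FPKM and 15.2 ± 2.50 FPKM, a ratio of 3.63, and the log2 difference of 1.65 was 1.43 with median-ratio scaling. Relative to B2m in the same oocyte, H2-T23 was at 0.0677 to 0.276 in WT and 0.329 to 0.516 in KO oocytes.

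H2-K1, a classical heavy chain, was at 1.78, 0.660 and 1.62 FPKM in WT and at 3.12, 5.03, 2.89 and 4.64 FPKM in KO oocytes, without overlap. Its log2 difference of 1.07 lay just past 2-fold, and it was 0.91 with median-ratio scaling, 0.83 with quantile normalization, 0.84 without WT2 and 0.97 without KO2. The other classical gene listed, H2-D1, was at 0 in the WT oocytes and at most 0.0510 FPKM in a KO oocyte. Class I genes resemble each other: 14.5% of the H2-T23 sequence, 9.63% of that of H2-K1 and 12.8% of that of H2-D1 recur in other genes, against a median of 0.92% over 100 random genes above the filter. Assignment of reads among them is therefore uncertain.

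Cd1d1, which presents lipids rather than peptides and pairs with B2m, moved the other way. It was at 3.06, 5.13 and 3.78 FPKM in WT and at 0.536, 0.8287, 0.844 and 0.153 FPKM in KO oocytes. No KO oocyte reached the WT range, and the WT mean was 6.76 times the KO mean. Of its sequence, 19.1% is shared with Cd1d2.

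**Figure D3:**
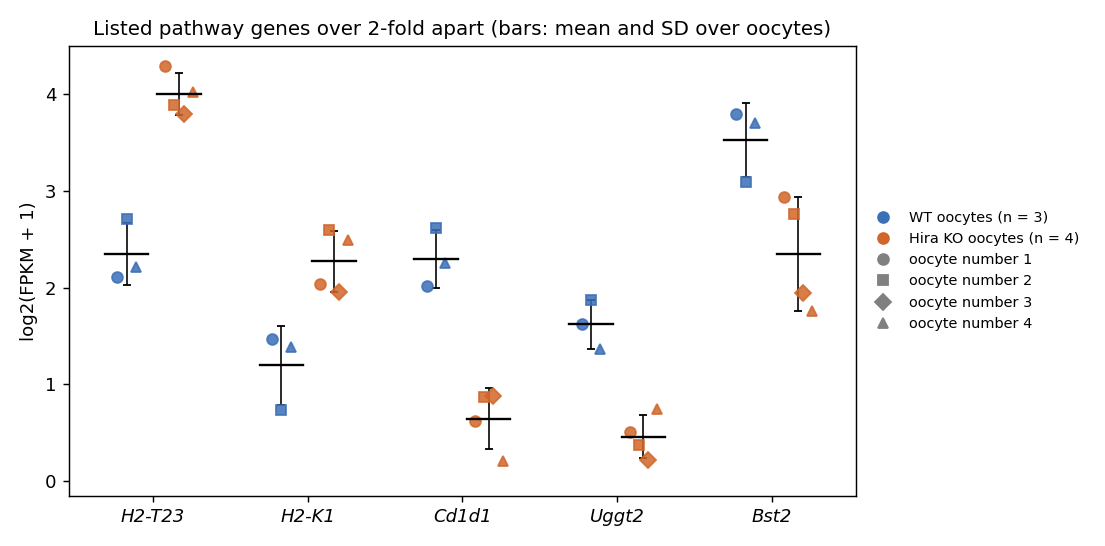
Level of the 5 listed pathway genes over 2-fold apart on the log2(FPKM + 1) scale (vertical axis), with 1 point per oocyte and black bars for the mean and SD over 3 WT (blue) and 4 KO (orange) oocytes. For H2-T23 and H2-K1 all KO points lie above all WT points, and for Cd1d1, Uggt2 and Bst2 all lie below.

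Regulators of class I transcription and of interferon signalling formed a list of 25 genes. Of these, 11 were above the filter, all with a positive difference, none over 2-fold in either direction, and 7 with every KO oocyte above every WT oocyte. Over all genes above the filter, 63.8% had a positive difference and 18.9% had every KO oocyte higher. The median difference was 0.56, against 0.18 for all genes above the filter, and 0.37 with median-ratio scaling, against -0.01. Stat2 and Socs1 were among those that passed the filter through KO oocytes alone. With no filter the list's median was 0.30, against 0.05 for all genes above 0 in any library.

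The master regulator of class I promoters, Nlrc5, was listed at 0 in all oocytes, and so was the class II regulator Ciita. Stat2, the signal transducer of type I interferon receptors, was at 0.670, 0.554 and 0.247 FPKM in WT and at 2.17, 2.84, 1.68 and 1.28 FPKM in KO oocytes. Rela, the p65 subunit of NF-kappaB, was at 1.79, 0.878 and 3.67 FPKM in WT and at 4.36, 5.22, 4.62 and 4.05 FPKM in KO oocytes. Both were without overlap, at log2 differences of 0.99 and 0.93. Irf1, an interferon response factor that acts on class I promoters, overlapped. Its means were 3.81 ± 1.04 FPKM (WT) and 4.85 ± 0.455 FPKM (KO).

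Most genes that interferon induces were at or near 0. Of 21, 14 were listed at 0 in all 7 oocytes, among them Isg15, Ifit3, Irf7 and Usp18, 6 were above 0 but below the filter, and only Bst2 passed it. Among the low genes, Oasl2, an oligoadenylate synthetase-like gene, was at 0, 0 and 0.0110 FPKM in WT and at 0.00518, 0.248, 0.608 and 0.267 FPKM in KO oocytes, so that KO1 alone lay in the WT range. Ddx58, which encodes the RNA sensor RIG-I, was above 0 in all 7 oocytes, at 0.450 to 0.543 FPKM in WT and 0.0958 to 0.888 FPKM in KO oocytes, with overlap. Bst2, or tetherin, which holds budding viruses at the cell surface, was at 12.9, 7.52 and 12.0 FPKM in WT and at 6.64, 5.77, 2.85 and 2.38 FPKM in KO oocytes. Every KO oocyte was below every WT oocyte, with a log2 difference of -1.18 that was -0.98 without KO4.

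The stretches upstream of B2m, H2-K1, H2-T23 and Bst2 are shown because all 4 genes respond to interferon in other cells, while here B2m overlapped between genotypes, H2-K1 and H2-T23 were higher and Bst2 lower in KO oocytes. They are the 250 bases before the start of transcription from RefSeq on GRCm38.p6 (for H2-K1, the first of 2 listed starts), 5′ to 3′ on the strand of the gene. Capitals mark, on either strand, the GAAA pair (GAAA, any 2 bases, GAAA), the core of the interferon-stimulated response element, and CCAAT, the box bound by NF-Y. B2m is from chr2:122147437-122147686 on the plus strand, H2-K1 from chr17:34000348-34000597, H2-T23 from chr17:36032702-36032951 and Bst2 from chr8:71537473-71537722, these 3 on the minus strand.
B2m: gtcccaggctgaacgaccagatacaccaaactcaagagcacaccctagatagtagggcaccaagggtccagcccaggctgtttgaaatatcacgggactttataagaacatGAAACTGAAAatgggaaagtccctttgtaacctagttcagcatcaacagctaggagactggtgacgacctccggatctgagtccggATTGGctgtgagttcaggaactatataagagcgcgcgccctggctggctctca
H2-K1: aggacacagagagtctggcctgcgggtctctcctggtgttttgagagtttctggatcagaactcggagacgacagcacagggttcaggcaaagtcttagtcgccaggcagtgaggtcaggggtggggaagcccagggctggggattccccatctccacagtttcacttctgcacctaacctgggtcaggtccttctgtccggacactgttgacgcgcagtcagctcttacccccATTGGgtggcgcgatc
H2-T23: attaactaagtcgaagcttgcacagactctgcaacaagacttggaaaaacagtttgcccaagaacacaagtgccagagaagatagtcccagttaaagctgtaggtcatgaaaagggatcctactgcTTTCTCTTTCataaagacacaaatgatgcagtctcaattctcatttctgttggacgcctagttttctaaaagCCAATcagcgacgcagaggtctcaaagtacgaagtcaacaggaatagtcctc
Bst2: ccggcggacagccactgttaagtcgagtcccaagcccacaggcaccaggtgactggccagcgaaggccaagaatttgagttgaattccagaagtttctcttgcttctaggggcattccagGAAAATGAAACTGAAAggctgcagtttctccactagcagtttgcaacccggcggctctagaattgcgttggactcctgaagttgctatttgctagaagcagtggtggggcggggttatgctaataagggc
The GAAA pair occurred in B2m, in H2-T23 and, as 2 overlapping matches, in Bst2, but not in the H2-K1 window. Only exact letters were searched, so the H2-K1 window may still hold a variant form of the element. It was found in 2.98% of 32851 such windows. CCAAT occurred in B2m, H2-K1 and H2-T23 but not in the Bst2 window, against 33.8% of all windows. In B2m and H2-T23 the GAAA pair began at -139 and -124 and CCAAT at -53 and -52, where the base before the start is -1, but both motifs lay on opposite strands in these genes. RefSeq windows were matched for 6 of the 8 members, of which 1 (B2m) held the GAAA pair and 5 held CCAAT. Tapbpl and Tap2 were not matched. A match of letters is a description of the sequence and shows neither binding nor a cause.

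Among genes that supply peptides, Psmb6, Psmb7 and Psmb5 encode the proteasome subunits that the interferon-inducible Psmb9, Psmb10 and Psmb8 replace. Psmb8 was listed at 0 in all oocytes, Psmb10 was above 0 only in WT1 (0.232 FPKM) and KO4 (0.183 FPKM), and Psmb9 is not analysed here. Of 8 proteasome genes with a value, 5 were above the filter and none was over 2-fold apart. Psmb6 was lower in every KO oocyte, at 29.9, 31.9 and 29.3 FPKM in WT1, WT2 and WT4 and at 18.8, 20.2, 23.3 and 22.5 FPKM in KO1 to KO4, with a log2 difference of -0.50. Psmb7 overlapped, at 2.24 to 3.42 FPKM in the WT and 3.07 to 8.20 FPKM in the KO group.

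Peptidases that trim or destroy peptides before transport numbered 11, of which 8 were above the filter, 6 with a positive and 2 with a negative difference and none over 2-fold apart. Their median was 0.53, beside 0.18 for all genes, and 0.31 with median-ratio scaling, beside -0.01. Only Tpp2 (0.46) and Prep (-0.50) pass a filter at 10 FPKM, with opposite differences and a median of -0.02. Nrd1, a metallopeptidase, passed the filter at 1 FPKM through KO oocytes alone. Blmh, bleomycin hydrolase, was at 3.47, 4.27 and 5.57 FPKM in WT and at 6.09, 10.14, 9.85 and 9.69 FPKM in KO oocytes. Ide, the insulin-degrading enzyme, was at 6.32, 3.14 and 4.40 FPKM in WT and at 7.31, 6.59, 8.53 and 9.58 FPKM in KO oocytes. In both genes the genotypes did not overlap.

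Among genes of ER glycoprotein folding and quality control, 14 of 18 with a value were above the filter. They were split evenly, with 7 positive and 7 negative differences, and Uggt2 alone was over 2-fold apart. Their median was 0.04, and -0.27 with median-ratio scaling. Uggt1 encodes the glucosyltransferase that re-marks misfolded glycoproteins and is known to be recruited to class I by TAPBPR, and Uggt2 is its paralogue. Uggt2 was at 2.08, 2.67 and 1.58 FPKM in WT and at 0.420, 0.295, 0.167 and 0.673 FPKM in KO oocytes, a WT mean 5.43 times the KO mean. Like Cd1d1, it passed the filter through WT oocytes alone. Uggt1 averaged 0.731 ± 0.181 FPKM (WT) and 1.15 ± 0.265 FPKM (KO), with overlap, and passed the filter through KO oocytes alone. Calnexin, encoded by Canx and the lectin that receives heavy chains before B2m joins, was the most abundant gene of the list with means of 214 ± 37.0 FPKM (WT) and 164 ± 20.2 FPKM (KO), also with overlap.

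Genes of ER translocation and export gave 14 of 15 above the filter, 7 positive and 7 negative and none over 2-fold apart. Sar1b, a GTPase of the vesicles that leave the ER, was at 13.6, 12.4 and 14.5 FPKM in WT and at 4.23, 14.5, 5.37 and 5.09 FPKM in KO oocytes, so that KO2 alone reached the WT level. Its log2 difference of -0.95 was past 2-fold with median-ratio scaling (-1.17), with quantile normalization (-1.12) and without KO2 (-1.30). Sec61a1, the channel subunit of the translocon, was at 1.88, 2.67 and 6.08 FPKM in WT and at 1.98, 1.19, 1.85 and 1.74 FPKM in KO oocytes, with overlap. The 7 pathway lists together had 56 genes above the filter. Of these, 2 (3.57%) were past 2-fold with KO higher and 3 (5.36%) with KO lower, beside 7.95% and 2.34% of all genes.

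**Figure D4:**
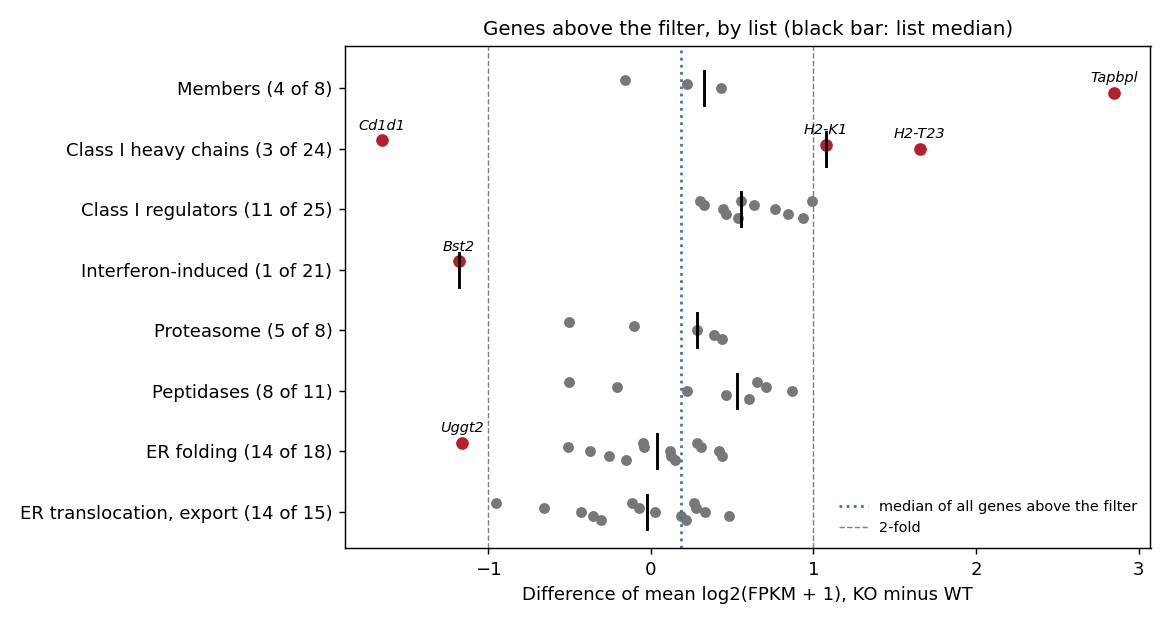
KO mean minus WT mean on the log2(FPKM + 1) scale (horizontal axis), for the genes above the filter in the member list and the 7 pathway lists, with 1 point per gene; in brackets, the genes above the filter of those with a value. Red points are over 2-fold apart, black bars are list medians, and the dotted line is the median of all genes above the filter at 0.18; the 11 class I regulators all lie to the right of 0 and inside 2-fold.

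The genes whose pattern over the 7 oocytes was most like that of Tapbpl were found by Pearson's r of log2(FPKM + 1) among 8032 other genes above the filter. They were Eapp (an E2F-associated phosphoprotein, r = 0.995), the unnamed gene ENSMUSG00000093760 (r = 0.994), Fam169a (r = 0.991), Pola2 (a subunit of DNA polymerase alpha, r = 0.990) and Prdm9 (the methyltransferase that marks meiotic recombination sites, r = 0.989). H2-T23 ranked 6th of the 8032 with r = 0.987, and B2m ranked 4370th with r = 0.16. With median-ratio scaling 2 of these 5 genes stayed among the 5 highest, and H2-T23 ranked 4th with r = 0.984. Among all genes, 255 (3.17%) had r of at least 0.9. These values are descriptions over 7 libraries that share their differences in depth and composition. In these 5 genes and in H2-T23 every KO oocyte lay above every WT oocyte. Their r thus largely restates the genotype difference for which Tapbpl was chosen.

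Pola2 was at 10.03, 23.8 and 12.9 FPKM in WT and at 54.7, 52.3, 36.1 and 47.6 FPKM in KO oocytes. ENSMUSG00000093760 was at 16.0, 42.9 and 16.9 FPKM in WT and at 149.9, 127, 96.4 and 86.1 FPKM in KO oocytes. Their order over the oocytes resembles that of Tapbpl because they were chosen for it.

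Tapbpl lies on chromosome 6, and Tapbp, Tap1, Tap2, H2-K1 and H2-T23 lie on chromosome 17. Of the 6 annotated genes nearest to Tapbpl, 3 had values, and none of these 3 was above the filter. Vamp1, the neighbour on the opposite strand, whose annotated locus overlaps that of Tapbpl, shares no exon base with it. Vamp1 was at 0.127, 0 and 0.0275 FPKM in WT and at 0.0130, 0.210, 0.00801 and 0.0194 FPKM in KO oocytes. Cd27, on the other side, was above 0 in WT4 alone (0.429 FPKM), and the microRNA gene Mir3098 in WT2 alone (2.39 FPKM). Gm44487, Mir8113 and Gm44259 are not analysed here. The nearest genes above the filter were Mrpl51, a mitochondrial ribosomal protein gene, on the Vamp1 side, and Tuba3a, an alpha tubulin, beyond Cd27. Mrpl51 averaged 2.75 ± 0.234 FPKM (WT) and 2.70 ± 0.785 FPKM (KO). Tuba3a was at 14.9, 15.7 and 50.5 FPKM in WT and at 9.09, 10.97, 13.6 and 7.64 FPKM in KO oocytes, without overlap. Its WT mean was 2.62 times the KO mean, and 1.48 times without WT4.

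**Figure D5:**
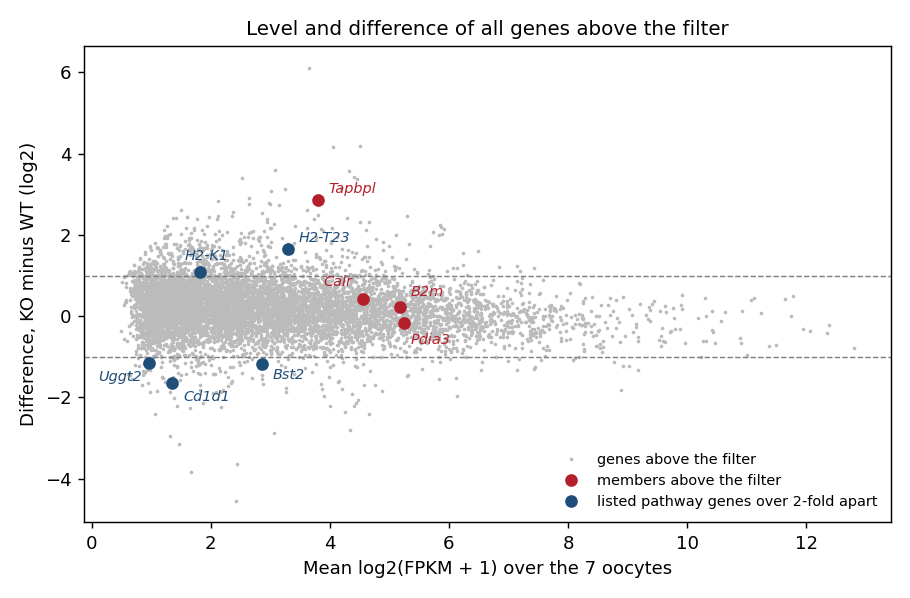
KO mean minus WT mean on the log2(FPKM + 1) scale (vertical axis), against the mean log2(FPKM + 1) over the 7 oocytes (horizontal axis) for the 8033 genes above the filter (grey). The 4 members above the filter are red and the 5 listed pathway genes over 2-fold apart are blue; dashed lines mark 2-fold, Tapbpl lies at 2.85 and B2m, Calr and Pdia3 lie between the dashed lines.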

How the data were processed

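The authors deposited 1 table of FPKM values, not logged, per Ensembl gene and oocyte. Per the labels' protocols, cDNA was made and amplified directly on single oocytes with the SMARTer Ultra Low kit, with ERCC spike-ins, and sequenced on 2 lanes. The build mm9 and, with no roles stated, edgeR 3.1.10, HTSeq, Bowtie2, Bowtie 0.12.8, TopHat and TopHat2 2.0.2 are named per the submitters' processing notes. How strand was counted is not given in the sources used here. No spike-in values were used, so levels are relative to the other RNA of the oocyte.

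Symbols came from a supplied gene name table (87.4% of identifiers, 97.4% of genes above the filter), and GENCODE M21 was used for gene order and, through 50-base words on either strand, for shared sequence. Whole reads were recovered from the steps between FPKM values of a gene (tolerance 0.01) as the smallest counts that match, so counts of genes with few reads are minima, and the procedure was tested on simulated data. Genes passed with at least 1 FPKM in at least 3 libraries. Calculations used Python 3.11.15, numpy 2.4.6 and pandas 2.3.3.

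The members, lists and naming rule were chosen with earlier results of these data known. Named were the members, Hira, per pathway list the genes over 2-fold apart (at most 4) or otherwise the 2 largest differences, marker genes over 2-fold apart, the 5 genes most like Tapbpl and its 6 neighbours. H2-D1, Irf1, Nlrc5, Ciita, Socs1, Uggt1, Canx, Psmb5, Psmb8, Psmb10, Isg15, Ifit3, Irf7, Usp18, Nrd1, Tpp2, Prep, Cd3e, Csf1r, Cd74, Ptprc, H2-Aa, H2-Eb1, Oasl2, Ddx58, Mogs, Mrpl51 and Tuba3a were named for their role or place after their values were seen. Another 2 listed genes, Psmb9 and Hm13, are not analysed here. A planned comparison of TAPBPR and tapasin proteins was not run. Alternatives were 2 pseudocounts, 2 filters, 2 scalings and leaving out each oocyte.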

Additional observations from a re-analysis of the deposited data

Results flagged for a closer look

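In 5 of 32 named genes, 1 of the 4 KO oocytes stood apart, with a gap to its nearest neighbour past Dixon's 95% critical value for 4 samples. Chance flags about 1 in 20 such groups of normally distributed values, a rate that need not hold for values near 0 such as those of Tap2 and Vamp1. Genes at 0 in all KO oocytes, such as Tap1, could not be flagged. Tap2 was at 0.110 FPKM in KO2, against 0 to 0.00722 in the other KO oocytes, and Vamp1 at 0.210 FPKM in KO2, against 0.00801 to 0.0194. Sar1b was at 14.5 FPKM in KO2, against 4.23 to 5.37. Blmh was at 6.09 FPKM in KO1, against 9.69 to 10.14. Hira was at 0.0242 FPKM in KO3, against 0.0941 to 0.0997.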

How the results depend on the processing

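The Tapbpl difference of 2.85 stayed over 2-fold under every alternative tried. It was 2.06 with a pseudocount of 5, 3.17 with a pseudocount of 0.1, and 2.58 to 3.33 when 1 oocyte was left out. The count of members without overlap was 1 to 2 when 1 oocyte was left out, Calr joining without WT1 or without KO1. Counts of members over 2-fold apart did not change. The pathway lists held 5 genes over 2-fold apart, 10 with a pseudocount of 0.1, 1 with a pseudocount of 5, 1 with a filter at 10 FPKM, and 4 to 7 when 1 oocyte was left out. H2-K1 fell under 2-fold with both scalings, and Zp2 in 5 settings named with it. Sar1b was over 2-fold lower with both scalings, where the pathway lists again held 5 genes over 2-fold apart. The ER folding median of 0.04 was -0.27 with median-ratio scaling and -0.10 with quantile normalization or without KO2. Of the 5 genes most like Tapbpl, 2 were among the 5 highest with median-ratio scaling. All genes over 2-fold higher and lower numbered 639 and 188, 1303 and 378 with a pseudocount of 0.1, 148 and 61 with a pseudocount of 5, 201 and 75 with a filter at 10 FPKM, 405 and 336 with median-ratio scaling, and 395 and 304 with quantile normalization. The higher genes thus made up 77.3% of calls as deposited, 54.7% with median-ratio scaling and 56.5% with quantile normalization. Pseudocounts change the differences of low genes by construction, and the cause of the other shifts was not tested. No paired analysis was possible because the labels pair no oocytes, and the 3 numbers that WT and KO oocytes share are names of single cells. No result comes from a test. Depth limits Tapbp, Tap2 and Erap1, which had 19 to 217 recovered reads over all libraries.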
